A study of Mus musculus with 17 samples.

Results

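The secreted Wnt antagonists examined here were 8 genes, chosen by symbol: the secreted frizzled-related proteins Sfrp1, Sfrp2, Sfrp4, Sfrp5 and Frzb, the Wnt inhibitory factor Wif1, and the dickkopf family members Dkk2 and Dkk3. They were 8 of the 18836 mouse genes listed in at least 1 library. Their levels were followed in cultured adult mouse neural retinal progenitor cells (mNRPCs) with and without bFGF and CHIR99021. Dkk2 and Dkk3 were the only members above an FPKM of 4 in any library. FPKM scales the reads of a gene by the length of its transcript and by the library's total, so levels can be compared between genes on this scale.

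Wnt proteins are secreted lipid-modified ligands that bind Frizzled receptors, and the co-receptors Lrp5 and Lrp6 are needed for the canonical branch that stabilises β-catenin. Secreted frizzled-related proteins carry a Frizzled-like cysteine-rich domain and bind Wnts outside the cell, and Wif1 binds them through a domain of its own. Dickkopf proteins of the Dkk2 kind bind the co-receptors instead and need Kremen proteins for full activity, whereas Dkk3 is a divergent member whose part in Wnt signalling is less settled. CHIR99021 inhibits the kinase GSK3 and so activates β-catenin below the step at which these antagonists act, and bFGF acts through its own receptor tyrosine kinases.

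The mNRPCs were isolated from the neural retina of adult mice and expanded in basic medium with bFGF and CHIR99021. The series held 17 libraries, namely 1 day 0 control and, on each of days 1, 3, 5 and 7, 1 library from each of 4 media. These were basic medium with no addition (BM), the same medium with bFGF added (B), with CHIR99021 added (C), or with both (BC). No treatment and day had a replicate, so the p-values below measure departures from models fitted over the 16 cultured libraries and not the spread between cultures. Total expected counts ran from 17571973 to 19428744 per library, and 14820 to 15882 genes were listed per library. Of a list of 8 retinal progenitor genes, Pax6, Six3 and Sox2 were at FPKM values of at least 10.7, 20.4 and 27.7 in all 17 libraries. Rax did not exceed 0.07, and not all of the others reached levels like those of Pax6, Six3 and Sox2. Pax6 ran from 10.7 to 33.8 in B and 16.5 to 82.35 in BC, against 42.2 to 207 in BM and 43.3 to 175 in C. In bulk RNA, fewer cells of a kind and less RNA per cell cannot be told apart.

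On the GRCm38.p6 build (RefSeq), Sfrp1 lies at chr8:23411383-23449632, Sfrp4 at chr13:19623175-19632825, Dkk2 at chr3:132085266-132180304 and Dkk3 at chr7:112116019-112159482. The RefSeq promoter table held 5 of the 8 members (Sfrp2, Sfrp5, Frzb, Dkk2 and Wif1). In the 250 bases before the transcript start that the table uses, none of the 5 held the TCF/LEF cores CTTTGAA or CTTTGAT or the AP-1 motif TGANTCA on either strand, and these were found in 7.48% and 6.75% of all 32851 promoters in the table. For Dkk2 this window reaches past the start of the gene given above, and for Sfrp2 it lies inside the annotated gene. The result says only that those letters are not in that window. The Dkk2 stretch is shown because Dkk2 was the only member of the 5 that passed the filter for testing. It covers 224 bases of the plus strand, chr3:132085042-132085265 (upstream of the gene, ending at the base before its annotated start), with its 6 CpG dinucleotides in capitals.
Dkk2: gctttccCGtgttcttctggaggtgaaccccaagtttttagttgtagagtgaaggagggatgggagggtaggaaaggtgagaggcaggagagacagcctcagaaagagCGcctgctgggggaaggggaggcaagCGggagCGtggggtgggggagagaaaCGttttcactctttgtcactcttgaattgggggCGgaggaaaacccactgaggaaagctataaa

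All 8 members were listed in at least 1 library, 4 (Sfrp1, Sfrp4, Dkk2 and Dkk3) were listed in all 17, and 3 (Sfrp1, Dkk2 and Dkk3) reached the mean FPKM of at least 1 over the 16 cultured libraries that was required for testing. Sfrp1 passed that filter with a mean of 1.13 only through the libraries without bFGF, so a lower level with bFGF was built into its passing. The sources describe the day 0 library both as cells cultured in BM and as cells before treatment, and its levels are given without a choice between these. On day 0, Dkk2 at an FPKM of 70.4 made up 76.4% of the summed FPKM of the 8 genes, and Dkk3 at 21.6 made up 23.4%. On day 7 the order was the opposite in all 4 treatments. Dkk3 then made up 87.2% of the sum under BM, 88.3% under C, 83.1% under B and 79.9% under BC, and its level was 7.43, 9.03, 5.03 and 4.11 times that of Dkk2. The other 6 members together summed to between 0.16 and 3.53 FPKM in each library.

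**Figure D1:**
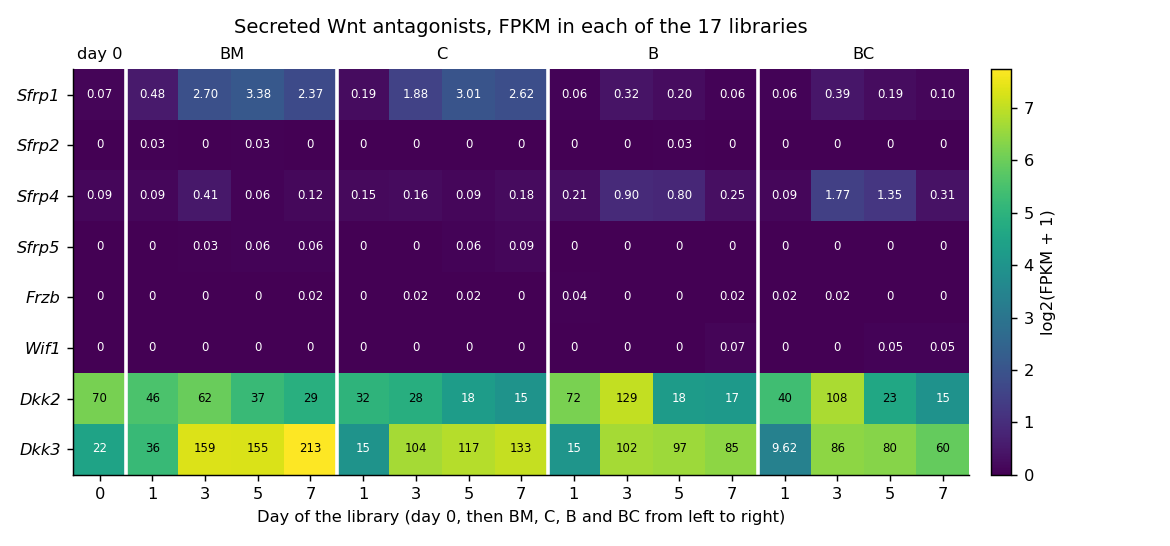
FPKM of the 8 secreted Wnt antagonists (rows) in the 17 libraries (columns, day 0 first and then BM, C, B and BC by day), with the colour giving log2(FPKM + 1) and the number in each cell the FPKM. Dkk2 and Dkk3 fill the high end of the scale, and Sfrp2, Sfrp5, Frzb and Wif1 do not exceed 0.09 in any library.

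Sfrp1, a Wnt-binding frizzled-related protein, was at its lowest in the libraries with bFGF. Its FPKM was 0.07 on day 0. In BM it was 0.48, 2.70, 3.38 and 2.37 on days 1, 3, 5 and 7, and in C it was 0.19, 1.88, 3.01 and 2.62. In B it was 0.06, 0.32, 0.20 and 0.06, and in BC 0.06, 0.39, 0.19 and 0.10. Within each pair of the same day the library without bFGF was higher, and on days 3 to 7 the lowest library without bFGF (1.88) was above the highest with it (0.39). Even so, these were low levels. The expected counts behind them were 16.1 to 274 per library without bFGF and 4.84 to 31.4 with it, and the exact Poisson 95% interval for the lowest of these, BC on day 1, ran from 1.62 to 11.7 counts.

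Because of how Sfrp1 passed the filter, its bFGF tests are given from the alternative fit of 18700 genes with no filter. There it was lower with bFGF over days 1 to 7 by a log2 fold change of -3.25 ± 0.29 (SE), with an adjusted p of 5.83e-06 by edgeR's quasi-likelihood test, and 23.8% of all genes were called lower. The filtered fit gave -3.25 ± 0.30 (adjusted p 1.39e-05). Sfrp1 was lower in 8 of 8 same-day pairs that differed only in bFGF. In the filtered fit, Sfrp1 and Dkk3 were called lower and Dkk2 higher. Of all 11272 genes tested there, 33.9% were called lower and 34.6% higher, so such calls were common and their number among the members is not particular to them. The fold changes are relative to the composition of each library (TMM scaling). With library size only, the median of all genes moved to -0.29, and 2245 genes were then called higher and 5702 lower, in place of 3896 and 3817. Sfrp1 kept its call and direction under each of the alternatives for which it was tested.

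**Figure D2:**
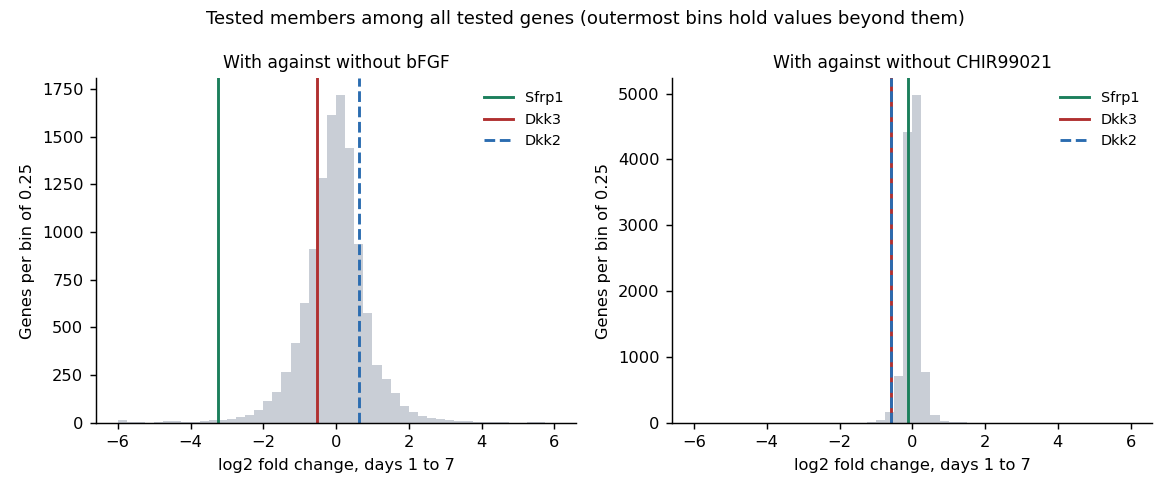
Histograms of the log2 fold changes of 11272 genes over days 1 to 7, with against without bFGF (left) and with against without CHIR99021 (right), with vertical lines at the 3 tested members. Sfrp1 lies at -3.25 among the bFGF differences, and it passed the filter only through the libraries without bFGF. Dkk2 and Dkk3 lie together at -0.57 and -0.59 on the left side of the narrower CHIR99021 differences.

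By day, in the fit with no filter, the bFGF difference of Sfrp1 was -2.38 ± 0.46 on day 1, -2.57 ± 0.28 on day 3, -3.60 ± 0.30 on day 5 and -4.38 ± 0.36 on day 7 (log2 fold change ± SE, edgeR adjusted p 0.00455, 1.12e-06, 1.19e-08 and 6.02e-09). The percentage of all genes called lower was 3.1% on day 1, 15.2% on day 3, 27% on day 5 and 27.4% on day 7, and in the filtered fit, where Sfrp1 was called on all 4 days too, it was 4.46%, 25%, 38.6% and 39.6%. The day 1 call of the filtered fit (-2.36 ± 0.49, adjusted p 0.0130) was lost with limma on log2(FPKM + 1) (-0.32, adjusted p 0.181) and when BM, B or BC of day 1 was left out (adjusted p 0.144, 0.0853 and 0.107), and without BM the difference was -1.65. The calls of days 3, 5 and 7 were kept in each of the 15 leave-one-out fits in which Sfrp1 passed the filter. Without bFGF, Sfrp1 rose between day 1 and day 7 by 2.89 ± 0.29 on the log2 scale (7.43-fold, adjusted p 4.24e-06, and 2.79 ± 0.28 with no filter). With bFGF, the same difference was 0.86 ± 0.66 and did not pass (edgeR adjusted p 0.246). With no filter it was 0.79 ± 0.61 (edgeR adjusted p 0.337).

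Sfrp4, another Wnt-binding frizzled-related protein, showed the opposite order at still lower levels. Its expected counts were 3 on day 0. On days 1, 3, 5 and 7 they were 3, 13, 2 and 4 in BM and 5, 5, 3 and 6 in C, against 7, 29, 25 and 8 in B and 3, 57, 42 and 10 in BC. The highest FPKM was 1.77, in BC on day 3. On day 5 the exact Poisson 95% intervals of B (16.2 to 36.9 counts) and BC (30.3 to 56.8) lay above those of BM (0.242 to 7.22) and C (0.619 to 8.77). On day 3 the interval of BC (43.2 to 73.9) lay above those of BM (6.92 to 22.2) and C (1.62 to 11.7), and that of B (19.4 to 41.6) lay above C and overlapped BM. On days 1 and 7 the intervals of all 4 treatments overlapped. These intervals cover counting error only.

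Sfrp4 had a mean FPKM of 0.434 and so did not pass the filter, and its tests come from the alternative fit of 18700 genes with no filter. There it was higher with bFGF by 2.14 ± 0.45 over days 1 to 7 (log2 fold change ± SE, edgeR adjusted p 0.00165), and in 7 of 8 pairs by FPKM. In that fit 22.6% of all genes were called higher. By day, the difference was 0.39 ± 0.76 on day 1, 2.26 ± 0.50 on day 3, 4.15 ± 0.62 on day 5 and 1.40 ± 0.66 on day 7, and those of days 3 and 5 passed (adjusted p 0.902, 0.00172, 1.44e-05 and 0.0860). The background of genes called higher without the filter was 16.5% on day 3 and 24.2% on day 5.

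**Figure D3:**
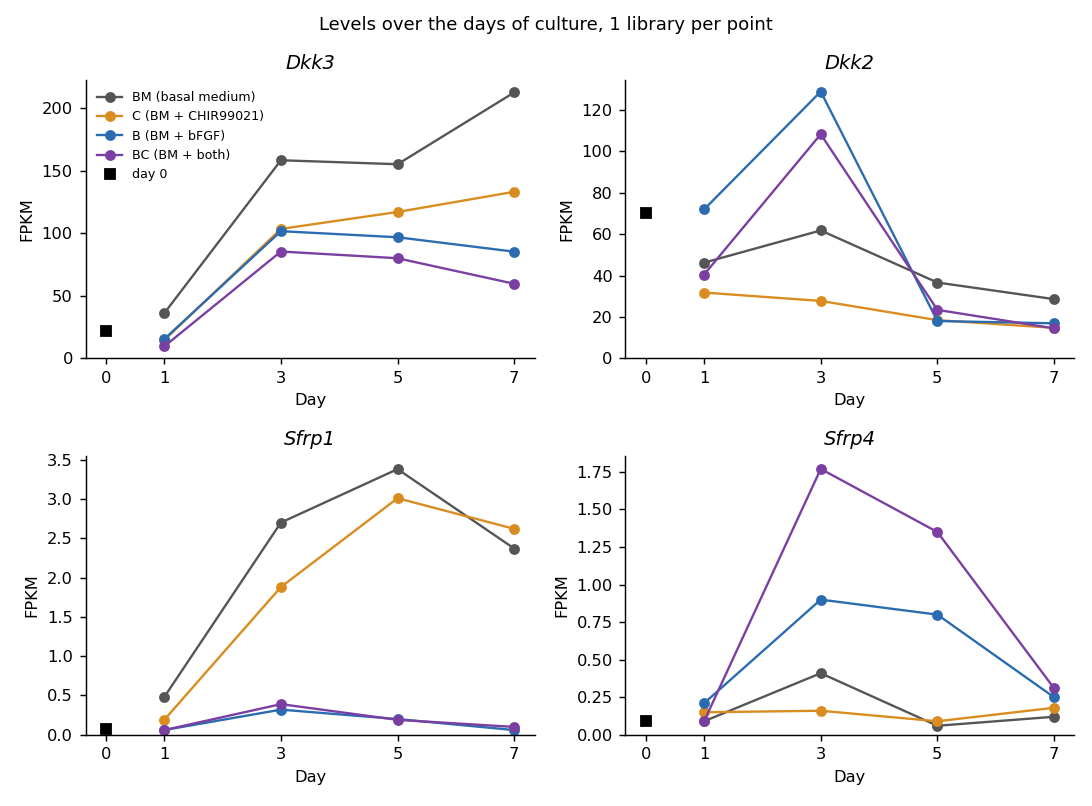
FPKM of Dkk3, Dkk2, Sfrp1 and Sfrp4 by day, with 1 library per point, a line for each treatment and a black square for day 0, and with an axis of its own for each gene. The Sfrp1 lines with bFGF stay at or below 0.39 while those without it reach 3.38 and 3.01, Sfrp4 is highest in BC and B on days 3 and 5, and Dkk2 peaks on day 3 in the libraries with bFGF at 129 and 108.

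The other Wnt-binding members, Sfrp2, Sfrp5, Frzb and Wif1, were near or at 0. Sfrp2 had 1 count in each of 3 libraries (BM on days 1 and 5 and B on day 5). Frzb had 1 or 2 counts in each of 7 libraries, in all 4 treatments. Sfrp5 had 1 to 3 counts in BM on days 3, 5 and 7 and C on days 5 and 7 and was at 0 in all 8 libraries with bFGF. Wif1 had 2 counts in BC on days 5 and 7 and 3 counts in B on day 7, and was at 0 in all 8 libraries without bFGF. A count of 0 allows up to 3 counts in a library (one-sided 95% limit), so no difference between single libraries was detectable at this depth for these 4 genes. Without the filter, Sfrp5 and Wif1 had adjusted p-values of 0.0506 and 0.0761 for bFGF over days 1 to 7, from totals of 10 and 7 counts over all libraries.

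Dkk3 had the highest FPKM of the 8 members from day 5 on in all 4 treatments, and already on day 3 in BM and C. It was higher on day 7 than on day 1 with and without bFGF. In FPKM, which is not corrected for composition, its highest level in B and BC was on day 3, with a fall to days 5 and 7. For B and BC, the TMM factors were 1.01 and 1.03 on day 3 and 0.803 and 0.816 on day 5. On day 7 they were 0.793 and 0.7545. A lower factor raises the scaled level, so this peak and fall depend on the scaling. The FPKM of Dkk3 was 21.6 on day 0. It was 36.2, 159, 155 and 213 in BM on days 1, 3, 5 and 7, and 14.6, 104, 117 and 133 in C. It was 15.4, 102, 96.9 and 85.4 in B, and 9.62, 85.5, 80.1 and 59.7 in BC. On all 4 days BM was highest and BC lowest, and in all 4 treatments the day 1 library was the lowest of the 4 days. In FPKM, on days 3 to 7 the lowest library without bFGF (104) was just above the highest with it (102), a gap that also depends on the scaling. With day 1 included the ranges overlapped.

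Between day 1 and day 7, Dkk3 rose by 2.80 ± 0.20 on the log2 scale without bFGF (6.96-fold, adjusted p 2.84e-07) and by 2.99 ± 0.21 with it (7.94-fold, adjusted p 1.00e-07). Sfrp1 and Dkk3 were the members called higher on day 7 without bFGF, and Dkk3 was the only member called higher with it. Among all tested genes, 32.3% were higher and 31.5% lower on day 7 than on day 1 without bFGF, and 35.8% were higher and 39.5% lower with it. The day is a series of single libraries, so the time in culture and what is particular to the libraries of 1 day cannot be told apart.

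Dkk3 was lower with bFGF by 0.52 ± 0.13 on the log2 scale over days 1 to 7 (log2 fold change -0.52, or 1.43-fold, edgeR adjusted p 0.00370), and lower in 8 of 8 pairs. This call held under each alternative and in all 16 leave-one-out fits. By day, the difference was -0.88 ± 0.20 on day 1, -0.35 ± 0.19 on day 3, -0.16 ± 0.19 on day 5 and -0.69 ± 0.19 on day 7 (adjusted p 0.0179, 0.138, 0.446 and 0.00507). The days 1 and 7 differences passed. The call on day 1 was lost in the libraries of that day alone (-0.98, adjusted p 0.213) and when BM, B or BC of day 1 was left out (adjusted p 0.172, 0.0708 and 0.153), and without BM the difference was -0.44. In FPKM, which is not corrected for composition, the day 5 and day 7 gaps were wider, and with library size only the day 5 difference was called as well (log2 fold change -0.61, adjusted p 0.0107).

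**Figure D4:**
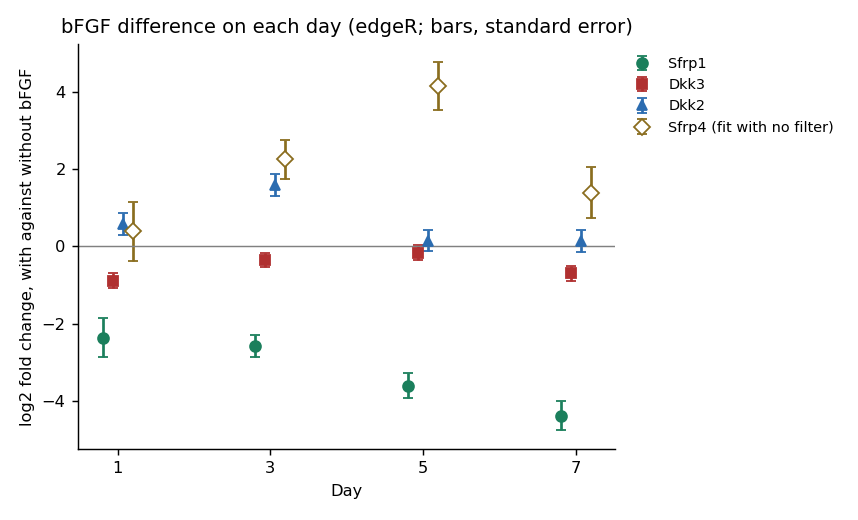
Log2 fold change with against without bFGF on each day (points, with the standard error as bars) from edgeR, for the 3 tested members and, with open symbols, for Sfrp4 from the fit with no filter. Sfrp1, which passed the filter only through the libraries without bFGF, is below 0 on all 4 days and reaches -4.39 on day 7. Dkk2 stands out on day 3 at 1.59, and Sfrp4 is highest on day 5 at 4.15.

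Dkk2 had a transient maximum on day 3 in the libraries with bFGF. Its FPKM was 70.4 on day 0. It was 46.3, 61.8, 36.7 and 28.6 in BM on days 1, 3, 5 and 7, and 31.8, 27.8, 18.5 and 14.8 in C. It was 72.0, 129, 18.1 and 16.96 in B, and 40.5, 108, 23.5 and 14.5 in BC. On day 3 both libraries with bFGF were above both without it, at 129 and 108 against 61.8 and 27.8. The day 3 level was 7.60 and 7.46 times that of day 7 in B and BC, against 2.16 and 1.88 times in BM and C. On days 5 and 7, 3 of the 4 pairs had the lower FPKM in the library with bFGF.

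On day 3, Dkk2 was higher with bFGF by 1.59 ± 0.28 (log2 fold change ± SE, 3.00-fold, edgeR adjusted p 0.000620), and 25.4% of all tested genes were called higher on that day. This call was kept in each alternative, from the 4 libraries of the day alone (adjusted p 0.0439) to DESeq2 (adjusted p 2.57e-05), and in all 16 leave-one-out fits. On day 1 the difference was 0.58 ± 0.28 (adjusted p 0.205). On days 5 and 7 it was 0.15 ± 0.28 on both (adjusted p 0.638 and 0.637), and its sign there turned with the scaling: with library size only it was -0.29 on day 5 and -0.39 on day 7.

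Over days 1 to 7 together, Dkk2 was called higher with bFGF by 0.62 ± 0.22 (adjusted p 0.0235), with 5 of 8 pairs higher in FPKM. This call was lost with library size only (0.33, adjusted p 0.271), with limma on FPKM (0.32, adjusted p 0.260 and 0.270 with pseudocounts of 1 and 0.1), without day 1 (0.62, adjusted p 0.0708), and when BM, B or C of day 3 or BC of day 5 was left out (0.53, 0.55, 0.43 and 0.58, adjusted p 0.0633, 0.0508, 0.0612 and 0.0510). Between day 1 and day 7, Dkk2 fell by 0.91 ± 0.28 on the log2 scale without bFGF (adjusted p 0.0137) and by 1.34 ± 0.29 with it (adjusted p 0.000980). The fall without bFGF was not called when C of day 7 was left out (adjusted p 0.103).

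The bFGF difference itself differed between days for Dkk2 (adjusted p 0.0161) and Sfrp1 (0.0272) by the edgeR test over the 4 days, and the test gave 0.0997 for Dkk3, which DESeq2 called (adjusted p 0.0318) and edgeR called without C of day 1 (0.00160). Such a difference between days was called for 76.3% of all tested genes. In the edgeR fit with no filter, where 48.6% of genes were called, Sfrp1 (adjusted p 0.0180) and Sfrp4 (0.0267) were called too. For Dkk2 the call of the filtered fit was lost without BC or C of day 3 (adjusted p 0.0685 and 0.0824). For Sfrp1 it was lost without BC or C of day 3 or B or C of day 7 (adjusted p 0.0757, 0.0593, 0.101 and 0.0536).

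CHIR99021 was compared in the 8 pairs of libraries that differed only in it. Dkk3 was lower with CHIR99021 in 8 of 8 pairs, with FPKM ratios of the library without to the library with CHIR99021 between 1.19 and 2.47, and Dkk2 was lower in 7 of 8. Over days 1 to 7 the log2 fold change was -0.59 ± 0.13 for Dkk3 (edgeR adjusted p 0.0813), -0.57 ± 0.21 for Dkk2 (adjusted p 0.352) and -0.12 ± 0.28 for Sfrp1 (adjusted p 0.963). Thus 0 of 3 members were called by edgeR, where 0.284% of all tested genes were called lower. At an unadjusted p under 0.05 there were 2 of 3 members (Dkk2 and Dkk3) and 1126 of 11272 genes. DESeq2 called Dkk3 (adjusted p 0.00199) and 281 genes in all, against 38 by edgeR, and limma called 0 of 3 members with either pseudocount. Of the tested genes, 1.14% had a lower log2 fold change than Dkk3 and 1.26% than Dkk2.

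**Figure D5:**
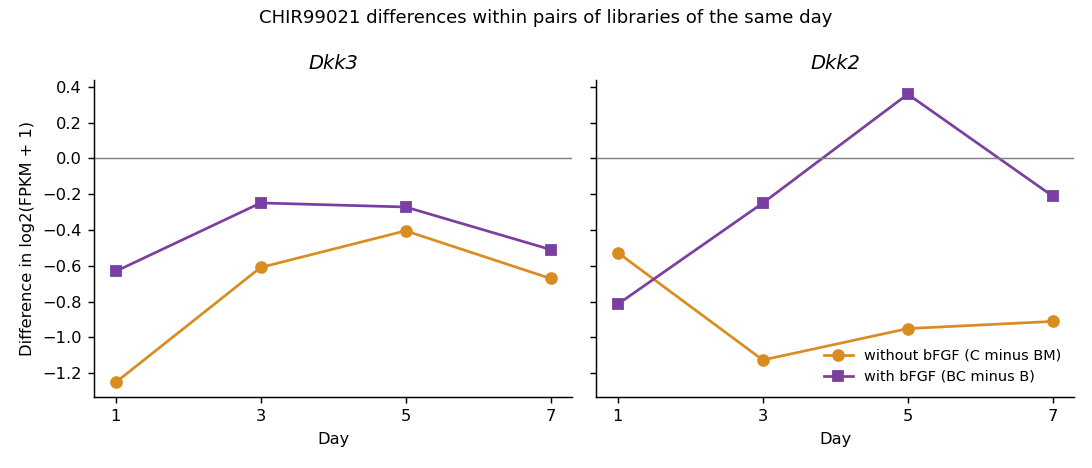
Difference in log2(FPKM + 1) between libraries with and without CHIR99021 of the same day, for Dkk3 and Dkk2, without bFGF (C minus BM) and with it (BC minus B). All 8 Dkk3 differences are below 0, between -1.25 and -0.25, and the Dkk2 differences are below 0 except that of day 5 with bFGF at 0.36.

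Without bFGF, the CHIR99021 difference was -0.77 ± 0.18 for Dkk3 and -0.89 ± 0.29 for Dkk2 (edgeR adjusted p 0.357 and 0.707), and with bFGF it was -0.41 ± 0.18 and -0.26 ± 0.29 (adjusted p 0.689 and 0.979). The share of all tested genes called in either direction by edgeR was 0% without bFGF and 0.00887% with it, and 461 and 751 genes had an unadjusted p under 0.05. Among the members, Dkk2 and Dkk3 without bFGF and Dkk3 with it had an unadjusted p under 0.05. DESeq2 called Dkk3 without bFGF (adjusted p 0.0141) and no member with it. The difference between the CHIR99021 effects was 0.63 for Dkk2 (95% interval -0.17 to 1.43) and 0.36 for Dkk3 (-0.13 to 0.84). Neither passed, 0.00887% of genes did, and these intervals leave room for a difference as large as the effects themselves. For Sfrp1 the CHIR99021 difference without bFGF had a 95% interval of -1.02 to 0.38.

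The rest of the Wnt pathway was described from gene lists, by counts over days 1 to 7 with bFGF against without, beside the 33.9% of all tested genes called lower and 34.6% called higher. With no filter, 23.8% of all genes were called lower and 22.6% higher. Counts of a few genes on such a base say little about a list. Of 14 other extracellular or membrane Wnt inhibitors, 5 passed the filter, 3 of these were lower and 0 higher. Apcdd1, a membrane Wnt inhibitor, was lower by a log2 fold change of -1.52 ± 0.20, and the Dkk co-receptor Kremen1 by -0.21 ± 0.07. Draxin, a secreted axon guidance protein that antagonises Wnt signalling, was lower by -5.55 ± 0.78. Draxin did not exceed an FPKM of 0.11 in B or 0.10 in BC, so it passed the filter only through the libraries without bFGF. A lower level with bFGF was thus built into its passing. With no filter, 5 genes of this list were called lower and 0 higher. Of 21 genes for Wnt ligands and their secretion, 7 passed the filter and all 7 were lower, among them Wnt7b (-1.33 ± 0.32), Wnt7a (-2.74 ± 0.70), the Wnt acyltransferase Porcn (-3.30 ± 0.48) and the Wnt carrier Wls (-0.71 ± 0.11). The median log2 fold change of these 7 was -1.96, beside -0.0023 for all tested genes. Wnt7a did not exceed an FPKM of 0.58 in B or 0.21 in BC, so it too passed the filter only through the libraries without bFGF. Its lower level was thus built into its passing, and it is part of both the count of 7 and their median. With no filter, 10 genes of this list were called lower and 1 higher. Of 15 receptors and co-receptors, 11 were tested, 7 were lower and 3 higher, with Ror1 at -2.87 ± 0.47, Fzd6 at -2.39 ± 0.35, Ryk at -0.59 ± 0.09 and Fzd7 at 0.50 ± 0.16. Ror1 did not exceed an FPKM of 0.32 in B or 1.21 in BC, against up to 4.58 in BM and 4.01 in C. Its passing of the filter thus also leaned on the libraries without bFGF. So did that of Fzd3, another of the 11, with a mean FPKM of 1.06. Fzd3 was at 1.14 or more in BM and 1.35 or more in C. It ran from 0.49 to 1.16 in B and from 0.38 to 1.13 in BC. With library size only, Fzd7 was not called (0.21, adjusted p 0.116). The co-receptor Lrp6, which Dkk2 binds, was at 0.01 ± 0.08 (adjusted p 0.872), and it was called lower with library size only (-0.27, adjusted p 0.0164). The only tested gene of 7 R-spondins and their receptors, Lgr4, was lower by -0.54 ± 0.11.

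Of 13 canonical Wnt targets and feedback genes, 7 were tested, and 3 were higher and 2 lower with bFGF, against 2 higher and 3 lower with library size only or with limma and 3 higher and 4 lower with no filter. Of all genes, 22.6% were called higher and 23.8% lower with no filter. With library size only, Tcf7 lost its call (0.42 to 0.13, adjusted p 0.482) and Znrf3 gained one (-0.25 to -0.53, adjusted p 0.0145). Ccnd1 and Myc, cell cycle genes that respond to many signals, were higher by 1.67 ± 0.19 and 1.82 ± 0.18, and the feedback genes Axin2 and Apcdd1 were lower by -1.49 ± 0.23 and -1.52 ± 0.20. With CHIR99021, edgeR called 0 genes in any of these lists, where it called 0.0532% of all tested genes higher and 0.284% lower. So few calls over all genes mean that 0 in a short list says little. Axin2, a widely used readout of β-catenin activity, was at 1.07 with an edgeR adjusted p of 0.0685. DESeq2 called Axin2 (adjusted p 0.000589) and Notum (0.0312) higher and Myc (0.0116) lower with CHIR99021, and limma called Myc lower with either pseudocount. Of all 11272 genes, DESeq2 called 281, and limma called 41 and 43 with pseudocounts of 1 and 0.1.

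Markers of other cell types were summed beside these results. The 6 fibroblast or mesenchyme markers, all listed, summed to 144 to 409 FPKM in the libraries without bFGF and 62.9 to 155 with it. Most of this sum came from a single gene of the list, and Lum did not exceed 0.03. The 4 pericyte or smooth muscle markers, all listed, summed to 35.7 to 480 FPKM without bFGF and 8.94 to 40.8 with it, through Acta2 and Pdgfrb, whereas Rgs5 and Cspg4 did not exceed 0.10 and 0.05. The 8 retinal progenitor markers, all listed, summed to 149 to 404 FPKM without bFGF and 96.1 to 207 with it. The sums of these lists ran lower with bFGF, as Sfrp1 and Dkk3 did, with overlapping ranges. Their part in those results was not tested. The summed markers of endothelium, microglia, photoreceptors, retinal pigment epithelium and astrocytes did not exceed 2.57 FPKM in any library. Müller glia markers summed to 1379 to 2697 FPKM without bFGF and 1682 to 4353 with it, nearly all from Vim, while Rlbp1 and Slc1a3 did not exceed 0.13 and 0.05. The 4 lens markers summed to 457 to 868 FPKM without bFGF and 322 to 2374 with it, nearly all from Cryab, a small heat shock protein also expressed outside the lens, while Cryaa did not exceed 0.64. The 5 retinal neuron markers summed to 5.01 to 15.7 FPKM without bFGF and 6.83 to 10 with it.

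By Pearson correlation of log2(FPKM + 1) over the 16 cultured libraries, the genes most like Sfrp1 were Tsc22d1 (r = 0.985), Mxra7 (0.985) and Lrp10 (0.983). Those most like Dkk3 were Fgfr1 (0.969), Ypel4 (0.969) and Rab5b (0.968), and those most like Dkk2 were Dab2 (0.936), Utrn (0.919) and Gpr176 (0.913). Among the members, Sfrp1 and Dkk3 had an r of 0.674, and Dkk2 had -0.141 with Sfrp1 and -0.174 with Dkk3. The libraries share treatments and days, so these values are descriptions only.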

How the data were processed

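The 17 libraries of mNRPC RNA were grouped by the treatment and day in their labels, and sequenced on the BGISEQ-500 platform. The paper's methods name Bowtie 2 and eXpress, and the submitters' processing notes name Bowtie2, RSEM and mm10, so the counting program is uncertain. Versions and strand handling are not given in the sources used here. The authors deposited for every gene an expected count, in which reads shared between genes are divided (64.6% to 67.4% of these counts were whole per library), and an FPKM value, listed from 0.01. A gene not listed was read as 0. The day 0 library was used for levels only.

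Members were matched by symbol. Expected counts were rounded and fitted with edgeR 4.0.16 in R 4.3.3 (TMM, glmQLFit, glmQLFTest). Genes needed an average FPKM of 1 or more in the 16 cultured libraries, which left 11272, and p-values were adjusted over these by the Benjamini-Hochberg method (threshold 0.05). The additive fit had day, bFGF and CHIR99021 as terms (10 residual degrees of freedom, biological coefficient of variation 24.7%), the interaction fit added their product (9 and 25.4%), and the fit by day gave bFGF an effect on each day (7 and 10.0%). The alternatives were library size without TMM, no filter (18700 genes), DESeq2 1.42.0, limma 3.58.1 on log2(FPKM + 1) or log2(FPKM + 0.1), the libraries of a day alone, and fits without day 1 or without 1 library at a time. Fits were tested on simulated data. Exact Poisson intervals of rounded counts used scipy 1.17.1, and intervals of fold changes are normal 95% intervals.

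All 8 members were named. For the other lists, the 2 genes with the highest mean FPKM and the called genes with the largest fold changes were named, up to 4 a list, and Lrp6, Fzd3, Notum, Tcf7 and Znrf3 were named after their values were seen. For likeness, 3 genes a member were named. A gene of the marker lists is not reported here. Members, lists and rules were chosen with earlier results of these data known.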

Additional observations from a re-analysis of the deposited data

Results flagged for a closer look

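The bFGF difference changed between days for Dkk2, by the edgeR test of the 4 daily differences (adjusted p 0.0161). It was 0.58 ± 0.28 on day 1, 1.59 ± 0.28 on day 3 and 0.15 ± 0.28 on days 5 and 7 (log2 fold change ± SE).

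The bFGF difference of Sfrp1 also changed between days by that test (adjusted p 0.0272), from -2.36 ± 0.49 on day 1 to -4.39 ± 0.38 on day 7. These values are from the filtered fit, which Sfrp1 passed only through the libraries without bFGF. With no filter, the edgeR adjusted p was 0.0180, and the difference was -2.38 ± 0.46 on day 1 and -4.38 ± 0.36 on day 7. Of all genes, 76.3% had such a change between days in the filtered fit and 48.6% with no filter, and each day had 4 libraries.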

How the results depend on the processing

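Of 770 alternative values of the tested members, 738 kept their side of the threshold, 23 lost a call, 9 gained one and 0 were reversed in sign with a call. The 738 include differences that were not called and changed sign, such as Dkk2 with bFGF on days 5 and 7 with library size only. In counts of members called, DESeq2 called 1 for CHIR99021 over days 1 to 7 and 1 without bFGF, in place of 0. For bFGF on day 1, limma on log2(FPKM + 1) called 1 and the libraries of the day alone 0, in place of 2. For bFGF on day 5, library size only, no filter and limma with either pseudocount called 2, in place of 1. Leaving out 1 library gave 0 to 2 members for bFGF on day 1, 1 to 3 on day 3, 0 to 1 on day 5, 1 to 2 on day 7 and 0 to 3 for a difference between days. Sfrp1 fell under the filter without BM of day 5, so it has 15 such fits. Lrp6 with bFGF, not called at 0.01, was called lower at -0.27 with library size only and at -0.25 and -0.27 with limma at pseudocounts of 1 and 0.1 (adjusted p 0.0164, 0.0253 and 0.0251).

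Over all genes, leaving out 1 library gave 1 to 28 genes called for CHIR99021 in place of 38, and 145 to 1778 for bFGF on day 1 in place of 1203. No filter, and leaving out day 1, gave 22 and 24 for CHIR99021. The libraries of day 3 alone gave 2534 in place of 5680. DESeq2 gave 58, 122 and 5 for CHIR99021 without bFGF, with bFGF and for the interaction, in place of 0, 1 and 1. With library size only, the calls for bFGF by day were 382 higher and 673 lower on day 1, 2404 and 3590 on day 3, 2404 and 6389 on day 5 and 2467 and 6650 on day 7, against 700 and 503, 2865 and 2815, 4192 and 4350, and 4370 and 4462. For day 7 against day 1 with bFGF they were 2487 and 6325, against 4032 and 4452, and DESeq2 gave 659 and 722 for bFGF on day 1. The cause was not tested. No fit with a replicate block was run, because each treatment and day had 1 library and no replicate number to pair; the day was a term of the fits. Sfrp2, Sfrp5, Frzb and Wif1 had at most 3 counts a library, too few for a difference between libraries to be detectable.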
